A study of Mus musculus with 9 samples.

Results

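Interferon-stimulated genes are the antiviral and immune-regulatory genes that interferons switch on, and a low level of them is transcribed in many cells without infection. The set described here holds 36 such genes, chosen by symbol from the list of genes that interferon is known to induce, and each of the 36 symbols was found among the 55359 genes of the count table. They were followed in cultured precursors of adipocytes from mouse iWAT (the inguinal white depot, which lies under the skin), before induction (day 0) and on days 4 and 8 of beige differentiation, with 3 bulk RNA-seq libraries per day and 9 in all. Beige adipocytes are thermogenic fat cells that arise in white fat. Induction used dexamethasone, IBMX (3-isobutyl-1-methylxanthine), indomethacin, insulin, T3 (triiodo-L-thyronine) and rosiglitazone, and the maintenance medium that followed lacked dexamethasone, IBMX and indomethacin. Day 0 cells had received none of these agents, so day and medium cannot be told apart, and the labels name no strain, sex, age or untreated culture kept to day 4 or 8. For all 9 libraries, cells were lysed with Triton X-100 and cycloheximide, and only RNA left in the lysate after a spin was sequenced.

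In background terms, type I interferons bind the receptor IFNAR1-IFNAR2, the kinases JAK1 and TYK2 phosphorylate STAT proteins, and STAT2 and IRF9 belong to the complex ISGF3, which binds the interferon-stimulated response element (ISRE). Interferon-gamma acts through IFNGR1-IFNGR2, JAK1 and JAK2, and many of its target genes carry the gamma-activated site (GAS). Uninfected cells keep many of these genes at a basal level through the same factors, and adipocyte precursors are known to respond to interferon.

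The promoters of 25 of the 36 genes were found in RefSeq (build GRCm38.p6), from 250 bases before to 50 bases after the annotated start. The ISRE letters GAAANNGAAA, searched on both strands, were in the promoters of 15 of those 25 genes (60.0%) and of 1079 of all 27025 genes with a promoter (3.99%). The GAS letters TTCNNNGAA, which read the same on both strands, were in 6 of the 25 (24.0%) and in 9.55% of all genes. The next 8 stretches of 80 bases carry ISRE letters, shown in capitals where matches can overlap, and belong to genes whose values are described below. A match is a description of the letters only. The stretch of Ifit1 lies at chr19:34640759-34640838 on the plus strand, that of Ifit3 at chr19:34583355-34583434 on the plus strand and that of Ifit3b at chr19:34607751-34607830 on the plus strand. The stretches of Isg15 (chr4:156200846-156200925), Rsad2 (chr12:26456528-26456607), Oas1a (chr5:120907526-120907605), Irgm1 (chr11:48871421-48871500) and Oas3 (chr5:120777690-120777769) lie on the minus strand. All are written 5′ to 3′ along the gene.
Ifit1: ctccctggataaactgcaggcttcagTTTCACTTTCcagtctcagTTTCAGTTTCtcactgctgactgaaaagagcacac
Ifit3: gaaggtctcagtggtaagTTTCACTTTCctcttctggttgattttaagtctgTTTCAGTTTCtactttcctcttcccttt
Ifit3b: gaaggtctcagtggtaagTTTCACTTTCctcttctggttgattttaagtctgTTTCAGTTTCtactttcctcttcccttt
Isg15: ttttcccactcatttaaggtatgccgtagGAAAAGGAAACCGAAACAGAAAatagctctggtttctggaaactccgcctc
Rsad2: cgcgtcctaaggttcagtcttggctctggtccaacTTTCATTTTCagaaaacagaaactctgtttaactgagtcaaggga
Oas1a: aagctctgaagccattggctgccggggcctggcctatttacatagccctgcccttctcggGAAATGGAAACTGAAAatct
Irgm1: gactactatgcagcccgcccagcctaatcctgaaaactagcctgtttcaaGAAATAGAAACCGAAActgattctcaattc
Oas3: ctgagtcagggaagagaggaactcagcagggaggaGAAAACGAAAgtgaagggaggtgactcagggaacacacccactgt
The Ifit3 and Ifit3b stretches were identical in 80 of 80 bases (100%). Isg15 had 3 overlapping matches in its stretch, against 2 in those of Ifit1, Ifit3, Ifit3b, Oas1a and Irgm1 and 1 in those of Rsad2 and Oas3.

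Total counts were 26387408 to 31474490 at day 0, 27222642 to 27692241 at day 4 and 30118228 to 31006682 at day 8. Levels are given in CPM, counts per 1e+06 counts on TMM-scaled library sizes, where the floor of 3 counts in a library is 0.0809 to 0.125 CPM and covers counting error only. Day 4 replicate 2 stood apart from the other day 4 libraries. Its 7 precursor markers summed to 2130 CPM, against 840 CPM in replicate 1 and 957 CPM in replicate 3, and its 7 adipocyte markers to 21900 CPM, against 39800 CPM in replicate 1 and 35500 CPM in replicate 3. The adipocyte markers summed to 318 to 397 CPM at day 0 and to 29500 to 31400 CPM at day 8, and the precursor markers to 2240 to 2420 CPM at day 0 and 669 to 899 CPM at day 8. The precursor markers did not move together. Of the 6 tested, 3 were lower (Pdgfra, Pdgfrb and Thy1) and 3 higher (Cd34, Ly6a and Dlk1) at day 4 than at day 0. At day 8 against day 0 the same 3 were lower and the others did not pass. The 13 macrophage markers summed to 49.8 to 111 CPM at day 0, 68.4 to 91.9 CPM at day 4 and 10.5 to 58.4 CPM at day 8, while Ptprc, the pan-leukocyte marker, never passed 0.315 CPM. Single macrophage markers differed. Of the 12 tested, 1 was higher (Mrc1, 2.40 ± 0.81, adjusted p = 0.0276) and 0 lower at day 4 than at day 0. At day 8 against day 4, 1 was higher (Cd68, 1.59 ± 0.44, adjusted p = 0.0278) and 3 lower, and at day 8 against day 0, 0 were higher and 2 lower. The 10 lymphocyte markers summed to 0.0592 to 0.485 CPM at day 0, 0.0788 to 0.218 CPM at day 4 and 0 to 0.139 CPM at day 8. The 4 neutrophil markers summed to 0.027 to 0.148, 0.158 to 0.459 and 0 to 0.14 CPM on days 0, 4 and 8, and the 4 plasmacytoid dendritic cell markers to 0.178 to 0.259, 0.292 to 0.551 and 0.278 to 0.596 CPM. Of the defining markers, Cd3d, Cd4, Ms4a1, Ncr1, S100a9 and Siglech had no count in any library, while Cd79a had up to 11 counts in a library, S100a8 had 0 counts at day 0 and 11, 5 and 4 at day 4, and Ly6d was higher at day 4 than at day 0 (1.60 ± 0.61, adjusted p = 0.0466). The 6 endothelial markers summed to 1.83 to 3.56 CPM at day 0, 0.626 to 2.1 CPM at day 4 and 0.452 to 1.19 CPM at day 8, and the 5 mural cell markers to 25.4 to 27.7, 55 to 62.7 and 30 to 35.7 CPM. Of the mural cell markers, Mcam (19.8 and 52.4 CPM on days 0 and 4) and Cspg4 (3.94 and 7.13 CPM) had higher means at day 4. The means of Rgs5 (0.342 and 0.0922 CPM), Abcc9 (1.79 and 0.417 CPM) and Kcnj8 (0.369 and 0.0121 CPM) were lower at day 4. Mitochondrial transcripts took 1.49% to 1.73% of counts at day 0, 3.17% to 5.65% at day 4 and 4.94% to 8.46% at day 8, where replicate 1 was highest. The part of cell makeup or mitochondrial share in the differences below was not tested, and in bulk RNA fewer cells of a type and less RNA per cell cannot be told apart.

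Of the 36 genes, 21 were lower and 4 higher at day 4 than at day 0, 10 did not pass the test and Mx1 had too few counts to be tested. Across all 14649 tested genes 54.6% were called in this comparison, 26.0% lower and 28.6% higher (edgeR's quasi-likelihood test, Benjamini-Hochberg adjusted p under 0.05). The median log2 fold change was -1.07 over the 35 tested genes and -0.01 over all genes tested. The 4 that rose were Oas3, Ifi27, Dhx58 and Iigp1. Oas3, and Rsad2 among the lower genes, were tested because of their day 8 levels. Without day 4 replicate 2 the counts were 22 lower and 4 higher, with 60.1% of all tested genes called. Of the 25 calls, 18 held whichever single library was left out.

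At day 8 against day 4, 24 of the 36 genes were higher and 0 lower, while 11 did not pass and Mx1 was untested. The background was 22.4% of all tested genes called, 11.7% higher and 10.8% lower, and the median log2 fold change was 1.29 over the 35 tested genes and 0.00 over all genes. No tested gene of the set was lower even at an unadjusted p under 0.05 in edgeR, and DESeq2 also called 0 lower and 25 higher. This count moved with the libraries used. It was 14 higher without day 4 replicate 3, 15 without day 8 replicate 2, 16 without day 8 replicate 1, and 25 without day 4 replicate 2. The share of all tested genes called moved too, and was 12.5%, 13.4%, 14% and 22.4% in these fits, in that order. Of the 24 calls, 13 held in every leave-out.

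Day 8 against day 0 gave 11 genes higher and 6 lower among the 36, with 18 not past the threshold. In all tested genes 63.4% were called in this comparison, 33.5% higher and 29.9% lower, so the share of the set called in each direction did not exceed the background. The median log2 fold change was 0.46 over the 35 tested genes and 0.03 over all genes. The 11 were Irf7, Oasl1, Oas2, Oas3, Rsad2, Ifi27, Ifih1, Dhx58, Bst2, Rtp4 and Iigp1, and the 6 were Ifit2, Irf9, Stat2, Ifitm3, Gbp2 and Irgm1. Of the 11, Oas3 and Rsad2 were tested because of their day 8 levels. Only 3 were lower when day 8 lost its replicate 2, or its replicate 3, and with library totals as the scaling the split was 7 lower and 8 higher. Of all tested genes, 57.8%, 58.5% and 66.1% were called in these fits, in that order. The 3 comparisons share their libraries in pairs, so they are not independent of each other.

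**Figure D1:**
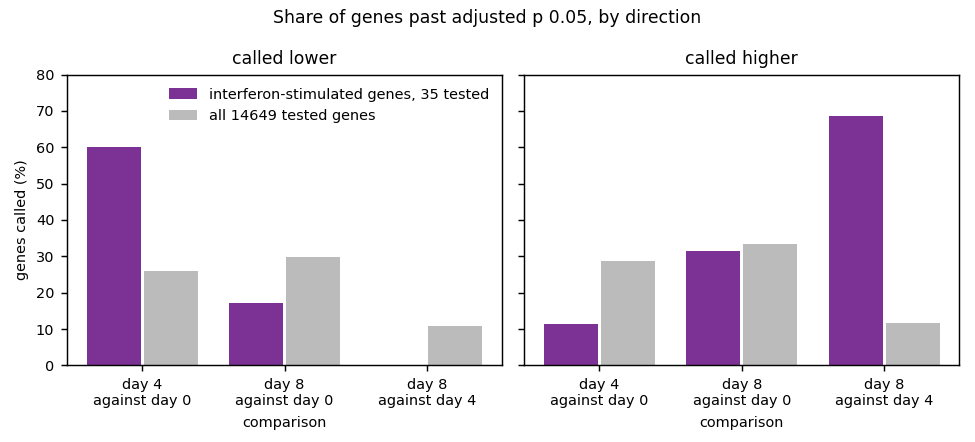
Share of genes (%) called lower (left) and higher (right) at adjusted p under 0.05 in each comparison, for the 35 tested interferon-stimulated genes (purple) and all 14649 tested genes (grey). The purple bars are 60.0% lower at day 4 against day 0, where the grey bar is 26.0%, and 68.6% higher at day 8 against day 4, where the grey bar is 11.7%.

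The mean level was lowest at day 4 in 28 of the 35 tested genes, at day 0 in Oas3, Ifi27, Ifi35, Dhx58 and Iigp1, and at day 8 in Ifitm3 and Gbp2. It was highest at day 8 in 21, at day 0 in 12 and at day 4 in 2. These orders of means were not counted over all tested genes, so they have no background share. The libraries of day 4 all lay below those of day 0 in 23 of the tested genes (33.0% of all tested genes did so) and above them in 5 (32.8%). Day 8 libraries all lay above those of day 4 in 26 (19.9%) and below them in 0 (17.1%). Against day 0 they all lay above in 13 (37.4%) and below in 6 (35.3%). Replicates spread most at day 4, where the median coefficient of variation over the 35 genes was 42.7%, against 17.2% at day 0 and 19% at day 8. Within days, day 4 replicate 2 was the highest of its day for 26 of the 36 genes, day 8 replicate 1 for 24 and day 0 replicate 1 for 28.

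**Figure D2:**
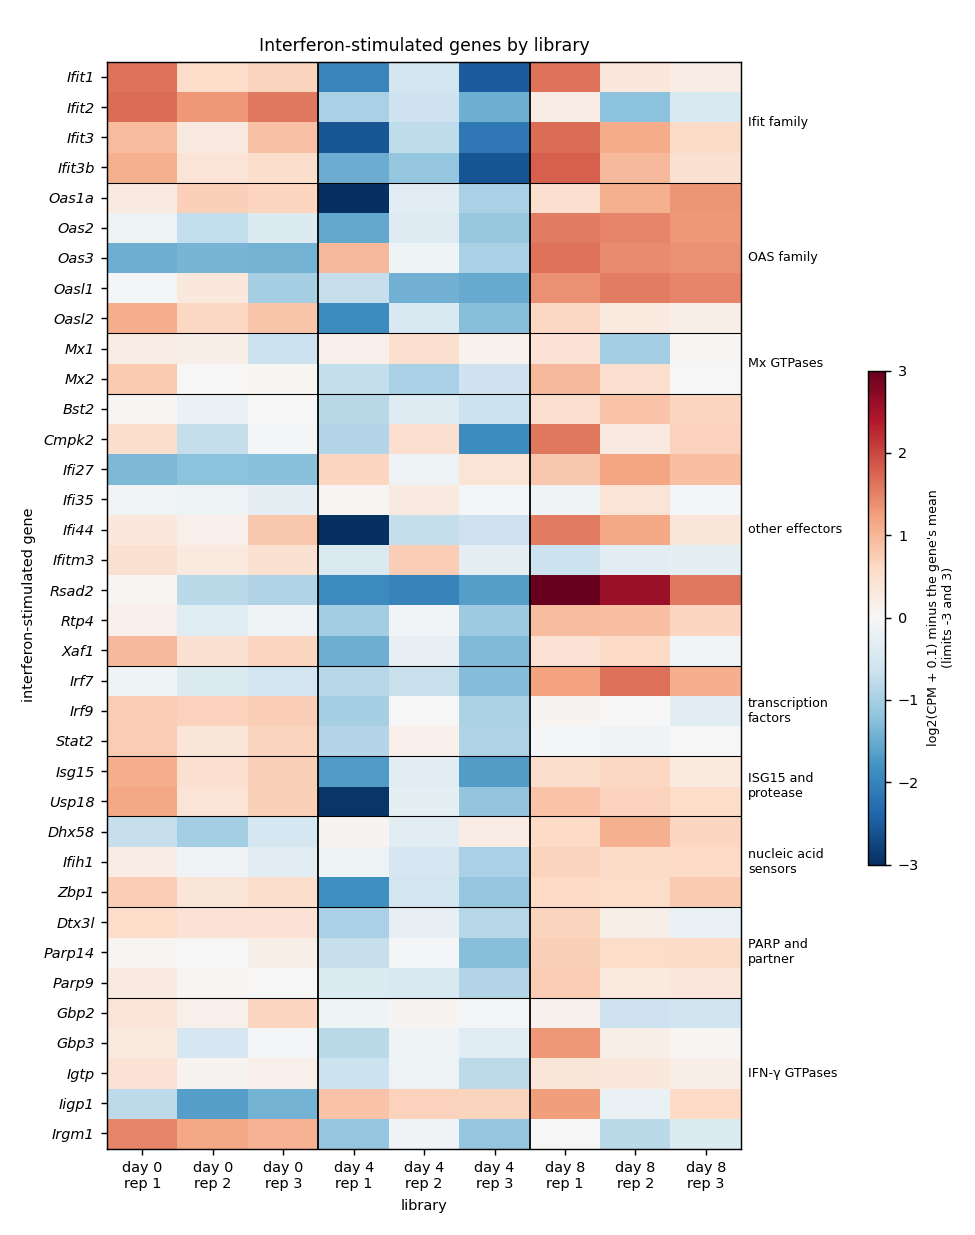
Level of each of the 36 genes in each library, as log2(CPM + 0.1) minus the gene's mean over the 9 libraries (red above, blue below), with genes grouped by role and libraries by day. Most genes are blue at day 4, least so in replicate 2, while Oas3, Ifi27, Dhx58 and Iigp1 are bluest at day 0.

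The Ifit proteins bind foreign RNA and block its translation. All 4 Ifit genes were lower at day 4 than at day 0, and 3 of them were higher again at day 8 than at day 4. Ifit3 had 21.7, 13.4 and 20.5 CPM at day 0, 1.79, 6.46 and 2.44 CPM at day 4 and 35.7, 24.2 and 16.5 CPM at day 8. Each day 4 library lay below every library of the other days, and days 0 and 8 overlapped. The log2 fold change was -2.37 ± 0.45 (SE, adjusted p = 0.00126) for day 4 against day 0 and 2.83 ± 0.46 (adjusted p = 0.00275) for day 8 against day 4, and without day 4 replicate 2 these were -3.12 and 3.53. Day 4 replicate 2, the highest of its day for Ifit3, also had the highest macrophage marker sum of that day (91.9 CPM), and day 8 replicate 1, again the highest for Ifit3, had the lowest (10.5 CPM). Lyz2 alone gave 50.9 CPM of that day 4 sum, and not every macrophage marker was highest in day 4 replicate 2 (C1qa had 7.68, 5.37 and 6.69 CPM at day 4). The part of macrophage RNA in the Ifit3 values was not tested.

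Ifit1 had 11.3, 5.28 and 5.77 CPM at day 0, 0.835, 2.4 and 0.551 CPM at day 4 and 11.3, 4.48 and 4.17 CPM at day 8. Its day 4 libraries were all below the rest, and days 0 and 8 overlapped. On the log2 scale the fold change was -2.55 ± 0.59 for day 4 against day 0 (adjusted p = 0.00394; -3.43 without day 4 replicate 2) and 2.38 ± 0.59 for day 8 against day 4 (adjusted p = 0.0171). The call at day 8 was lost without day 8 replicate 1, where the log2 fold change was 1.76 (adjusted p = 0.0675), and without day 4 replicate 3. Ifit3b averaged 3.57 ± 0.93 CPM at day 0, 0.631 ± 0.323 CPM at day 4 and 5.0 ± 2.46 CPM at day 8 (SD, n = 3 each). It was lower at day 4 than at day 0 by a log2 fold change of -2.49 ± 0.48 and higher at day 8 than at day 4 by 2.97 ± 0.48 (adjusted p = 0.00135 and 0.0028). Ifit3 and Ifit3b share sequence, with 51.2% of the 50-base windows of Ifit3 found in Ifit3b and 44.5% of those of Ifit3b found in Ifit3, so the split of reads between them is uncertain.

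Ifit2 differed from its neighbours at day 8. It had 9.41, 7.25 and 8.94 CPM at day 0, 1.42, 1.85 and 0.984 CPM at day 4 and 3.4, 1.17 and 2.07 CPM at day 8. Libraries of days 4 and 8 overlapped and both lay below day 0. In the fit, the log2 fold change was -2.58 ± 0.39 for day 4 against day 0 (adjusted p = 0.000265), -1.94 ± 0.37 for day 8 against day 0 (adjusted p = 0.000963) and 0.64 ± 0.38 for day 8 against day 4 (adjusted p = 0.248). For day 8 against day 0, by comparison, the log2 fold change was 0.46 ± 0.41 for Ifit3, 0.48 ± 0.42 for Ifit3b and -0.16 ± 0.53 for Ifit1, none past the threshold (adjusted p = 0.353, 0.333 and 0.801). The difference between genes was not tested.

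**Figure D3:**
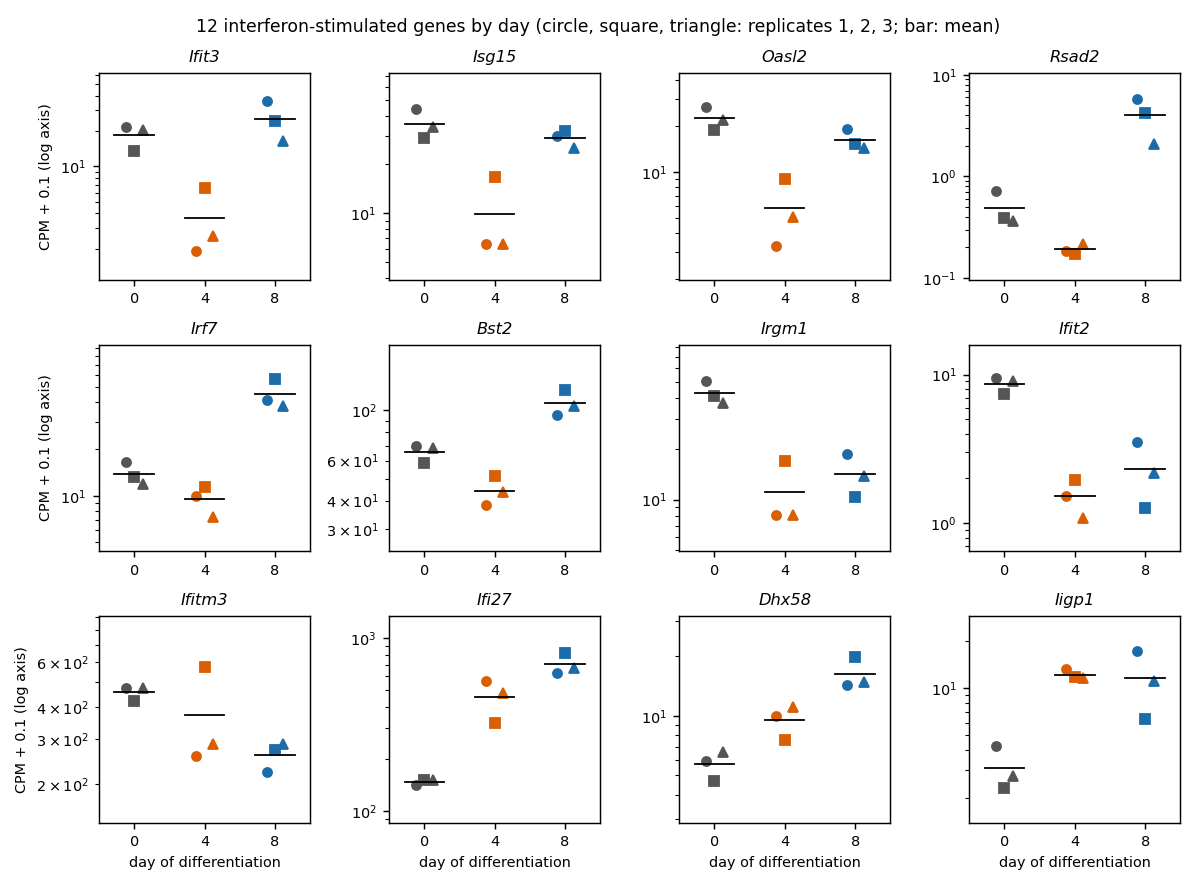
CPM + 0.1 (log axis) of 12 interferon-stimulated genes by day of differentiation, 1 point per library (circle, square and triangle for replicates 1, 2 and 3) with the mean as a bar. Ifit3, Isg15 and Oasl2 dip at day 4, Irf7, Rsad2 and Bst2 stand highest at day 8, Irgm1 and Ifit2 stay below day 0, and Ifi27, Dhx58 and Iigp1 are lowest at day 0.

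The OAS enzymes make oligoadenylates that activate RNase L when double-stranded RNA is present, and the Oasl proteins are their relatives. Of the 5 measured, Oasl1, Oasl2 and Oas1a were lower and Oas3 higher at day 4 than at day 0. Oas2, Oasl1, Oasl2 and Oas1a were higher at day 8 than at day 4, and Oasl1, Oas2 and Oas3 were higher at day 8 than at day 0. Oasl2 had 26.5, 18.9 and 21.9 CPM at day 0, 3.21, 8.93 and 5.0 CPM at day 4 and 19.0, 15.2 and 14.3 CPM at day 8. Its day 4 libraries were below all others. By edgeR the log2 fold change was -1.97 ± 0.32 for day 4 against day 0 and 1.49 ± 0.31 for day 8 against day 4 (adjusted p = 0.00044 and 0.0088).

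Oasl1, which in mouse holds back translation of Irf7 mRNA, had 1.67, 2.2 and 0.828 CPM at day 0, 1.04, 0.581 and 0.551 CPM at day 4 and 4.68, 5.27 and 4.98 CPM at day 8. The day 8 libraries were above all others, and days 0 and 4 overlapped. Its log2 fold change was 1.67 ± 0.37 for day 8 against day 0 and 2.78 ± 0.40 for day 8 against day 4 (adjusted p = 0.00267 and 0.00181). The lower level at day 4 (-1.11 ± 0.40, adjusted p = 0.0372) passed in only 2 of 9 leave-outs, those without day 0 replicate 3 or day 4 replicate 1, and its adjusted p reached 0.149 without day 0 replicate 2.

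Oas2 had 0.485, 0.291 and 0.385 CPM at day 0, 0.125, 0.399 and 0.197 CPM at day 4 and 1.8, 1.7 and 1.51 CPM at day 8. Day 8 lay above both other days, which overlapped. The log2 fold change was 2.09 ± 0.44 for day 8 against day 0 (adjusted p = 0.00173), 2.75 ± 0.47 for day 8 against day 4 (adjusted p = 0.00358) and -0.67 ± 0.49 for day 4 against day 0 (adjusted p = 0.273). Oas3 was near the floor at day 0 with 1 count in each library (0.027, 0.0324 and 0.0296 CPM), and had 0.584, 0.218 and 0.0788 CPM at day 4 and 0.972, 0.829 and 0.806 CPM at day 8. The days did not overlap. From total counts of 22 at day 4 against 3 at day 0, the ratio was 9.7 (95% counting interval 2.91 to 50.6), and from 73 at day 8 against 3 at day 0 it was 29.5 (9.71 to 146). These intervals cover counting error only and leave out the spread between libraries, which held 14, 6 and 2 counts at day 4. The edgeR adjusted p for Oas3 was 0.00872 at day 4 and 0.000339 at day 8, each against day 0. Oas3 reached the filter's 0.346 CPM in 0 libraries of day 0, 1 of day 4 and 3 of day 8. It was therefore tested because of its day 8 level, which favours a rise from day 0 to day 8. Its adjusted p at day 8 is thus no independent test of that rise. Without day 4 replicate 1 its log2 fold change for day 4 against day 0 was 2.20 (adjusted p = 0.0488), against 3.12 with all libraries.

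Oas1a averaged 2.35 ± 0.382 CPM at day 0, 0.688 ± 0.577 CPM at day 4 and 3.25 ± 0.953 CPM at day 8 (SD, n = 3 each). It was lower at day 4 than at day 0 (-1.75 ± 0.59, adjusted p = 0.0277) and higher at day 8 than at day 4 (2.21 ± 0.59, adjusted p = 0.0244). The first call was lost on leaving out replicate 2 or 3 of day 0 or replicate 3 of day 4, and the second on leaving out replicate 3 of day 4 or replicate 2 or 3 of day 8 (adjusted p up to 0.0682 in each). Without day 4 replicate 2 the log2 fold changes of Oas1a were -2.47 and 2.88. Of its 50-base windows 57.6% were shared with Oas1g, so its counts are uncertain. Mx2, a dynamin-like GTPase, averaged 1.31 ± 0.452 CPM at day 0, 0.562 ± 0.0815 CPM at day 4 and 1.53 ± 0.553 CPM at day 8. Log2 fold changes of Mx2 were -1.22 ± 0.41 for day 4 against day 0 and 1.44 ± 0.41 for day 8 against day 4 (adjusted p = 0.0275 and 0.0312). Each of these calls was lost in 4 of 9 leave-outs, with the adjusted p up to 0.129 (without day 0 replicate 1) and 0.106 (without day 8 replicate 1). Losses were without day 0 replicate 1 or any 1 of the day 4 libraries for the first, and without day 4 replicate 2 or 3 or day 8 replicate 1 or 2 for the second. Mx1, the other member of that family, had 5, 4 and 1 counts at day 0, 3, 5 and 3 counts at day 4 and 5, 0 and 3 counts at day 8.

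ISG15 is a ubiquitin-like protein that is conjugated to newly made proteins, and USP18 removes it and also damps signalling at IFNAR2. Isg15 had 44.0, 28.9 and 33.9 CPM at day 0, 6.34, 16.5 and 6.38 CPM at day 4 and 29.9, 32.2 and 25.3 CPM at day 8. Every day 4 library was below the rest, and days 0 and 8 overlapped. On the log2 scale the fold change was -1.87 ± 0.34 for day 4 against day 0 (adjusted p = 0.00104; -2.48 without day 4 replicate 2), 1.58 ± 0.34 for day 8 against day 4 (adjusted p = 0.0101) and -0.29 ± 0.33 for day 8 against day 0 (adjusted p = 0.46).

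Usp18 had 9.92, 5.89 and 7.28 CPM at day 0, 0.501, 3.63 and 1.89 CPM at day 4 and 8.08, 7.23 and 6.48 CPM at day 8. Its day 4 libraries also lay below all others. In the fit, the log2 fold change was -1.93 ± 0.50 for day 4 against day 0 and 1.84 ± 0.50 for day 8 against day 4 (adjusted p = 0.00752 and 0.0254), and -2.67 and 2.54 without day 4 replicate 2. The second call was lost on leaving out replicate 3 of day 4, or replicate 1 or 2 of day 8 (adjusted p up to 0.0784). In day 8 against day 0 the log2 fold change of Usp18 was -0.08 ± 0.47 (adjusted p = 0.885).

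The 3 transcription factors of the set did not share a pattern. Irf7, the factor that amplifies type I interferon output, had 16.3, 13.2 and 11.9 CPM at day 0, 9.89, 11.2 and 7.21 CPM at day 4 and 41.2, 56.7 and 38.0 CPM at day 8. Day 8 lay above both other days without overlap, and day 4 below day 0. By edgeR the log2 fold change was 1.71 ± 0.22 for day 8 against day 0 (adjusted p = 6.56e-05) and 2.26 ± 0.22 for day 8 against day 4 (adjusted p = 0.000299). The value of -0.55 ± 0.22 for day 4 against day 0 missed the threshold (adjusted p = 0.0513). It passed in 3 of 9 leave-outs, with the adjusted p between 0.016 and 0.189 over all 9, and also in DESeq2, without the filter and with library totals. Exons of Irf7 overlap those of Phrf1 on the opposite strand, and the strand setting of the counting was not given in the sources used here.

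Stat2 and Irf9, whose proteins belong to ISGF3, were lower at day 4 and at day 8 than at day 0. Stat2 had 47.7, 35.9 and 44.3 CPM at day 0, 15.2, 31.0 and 14.6 CPM at day 4 and 27.1, 26.0 and 27.5 CPM at day 8. Day 0 was above both later days, which overlapped because of day 4 replicate 2. Its log2 fold change was -1.07 ± 0.26 for day 4 against day 0 (adjusted p = 0.00555) and -0.67 ± 0.26 for day 8 against day 0 (adjusted p = 0.0431). That second call was lost in 5 of 9 leave-outs, without day 0 replicate 1 or 3 or any 1 of the day 8 libraries (adjusted p up to 0.108).

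Irf9 had 44.6, 42.6 and 44.1 CPM at day 0, 13.1, 26.6 and 13.7 CPM at day 4 and 28.0, 26.0 and 21.3 CPM at day 8. Days 4 and 8 again overlapped below day 0. The log2 fold change was -1.29 ± 0.25 for day 4 against day 0 and -0.80 ± 0.24 for day 8 against day 0 (adjusted p = 0.00134 and 0.0145), the second lost without day 8 replicate 3 (adjusted p = 0.0574). In day 8 against day 4, neither Irf9 (0.49 ± 0.25, adjusted p = 0.171) nor Stat2 (0.41 ± 0.26, adjusted p = 0.28) passed with all libraries, and each did without day 4 replicate 2, with 0.85 for Irf9 and 0.80 for Stat2 (adjusted p = 0.00242 and 0.00355). Irf9 exons overlap those of Rnf31 on the same strand, which leaves its counts uncertain.

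Rsad2 (viperin), a radical SAM enzyme that makes a chain-terminating nucleotide, was highest at day 8. It had 0.62, 0.291 and 0.266 CPM at day 0, 0.0834, 0.0726 and 0.118 CPM at day 4 and 5.69, 4.07 and 1.96 CPM at day 8. No overlap was seen between days, and the day 4 libraries held 2 or 3 counts each, at or under the floor. Rsad2 reached the filter's 0.346 CPM in 1 library of day 0, 0 of day 4 and 3 of day 8, so it was tested because of its day 8 level, and the size of its change against day 4 rests on those few counts. On the log2 scale the fold change was 3.29 ± 0.49 for day 8 against day 0 and 5.36 ± 0.60 for day 8 against day 4 (adjusted p = 0.000198 and 0.000463). For day 4 against day 0 it was -2.07 ± 0.66 (adjusted p = 0.0209), a call lost on leaving out the first replicate of day 0, or replicate 1 or 2 of day 4 (adjusted p up to 0.0861). Cmpk2, a nucleotide kinase that sits beside Rsad2 in the genome, averaged 0.707 ± 0.332 CPM at day 0, 0.489 ± 0.469 CPM at day 4 and 1.45 ± 0.746 CPM at day 8 (SD, n = 3 each) and passed in no comparison with all libraries. Without day 4 replicate 2 its log2 fold change for day 8 against day 4 was 2.63 (adjusted p = 0.0211).

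Bst2 (tetherin), which holds budding virions at the cell surface, had 69.5, 58.2 and 68.1 CPM at day 0, 37.9, 51.1 and 43.4 CPM at day 4 and 95.7, 123 and 105 CPM at day 8. The days stood apart without overlap. In the fit, the log2 fold change was -0.56 ± 0.15 for day 4 against day 0, 0.72 ± 0.15 for day 8 against day 0 and 1.29 ± 0.15 for day 8 against day 4 (adjusted p = 0.00915, 0.0017 and 0.000594). Rtp4, a chaperone of cell-surface receptors, averaged 11.0 ± 2.04 CPM at day 0, 7.38 ± 3.16 CPM at day 4 and 21.1 ± 2.3 CPM at day 8. Rtp4 was higher at day 8 than at day 0 (0.94 ± 0.27, adjusted p = 0.0102) and than at day 4 (1.52 ± 0.27, adjusted p = 0.00447). Day 4 against day 0 passed for Rtp4 only without day 4 replicate 2 (-0.99, adjusted p = 0.00117; -0.58 ± 0.27, adjusted p = 0.0935 with all libraries), among the leave-outs, and it passed with library totals (adjusted p = 0.0259). An exon overlap on the same strand with Gm45338, and 11.6% of 50-base windows shared with it, leave the counts of Rtp4 uncertain. With library totals as the scaling, the higher level at day 8 than at day 0 passed for neither Bst2 nor Rtp4.

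Xaf1, a binding partner of the apoptosis inhibitor XIAP, averaged 17.4 ± 3.25 CPM at day 0, 5.64 ± 2.88 CPM at day 4 and 13.4 ± 3.11 CPM at day 8 (SD, n = 3 each). By edgeR the log2 fold change was -1.62 ± 0.33 for day 4 against day 0 and 1.24 ± 0.33 for day 8 against day 4 (adjusted p = 0.00181 and 0.0222), the second lost without day 4 replicate 3 or day 8 replicate 1 or 2 (adjusted p up to 0.0798). Ifi44 was low, with 0.916, 0.809 and 1.33 CPM at day 0, 0, 0.399 and 0.433 CPM at day 4 and 2.33, 1.73 and 0.946 CPM at day 8, so day 4 lay below the other days. Its log2 fold change was -1.84 ± 0.72 for day 4 against day 0 (adjusted p = 0.0496), which passed in only 1 of 9 leave-outs, that without day 4 replicate 2, and reached an adjusted p of 0.135 without day 0 replicate 3. For day 8 against day 4 it was 2.55 ± 0.72 (adjusted p = 0.029), lost without day 4 replicate 3 or day 8 replicate 1 or 2 (adjusted p up to 0.094).

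Ifitm3 and Ifi27, both membrane proteins, were the highest of the set per length, and their day orders were opposite. Ifitm3, which blocks virus entry from endosomes, had 476, 423 and 475 CPM at day 0, 258, 575 and 286 CPM at day 4 and 223, 272 and 288 CPM at day 8. Day 8 was below day 0, and day 4 spanned both because replicate 2 was the highest library of all. The log2 fold change was -0.81 ± 0.27 for day 8 against day 0 (adjusted p = 0.0218), lost without day 8 replicate 1 or 2 (adjusted p up to 0.0802). For day 4 against day 0 it was -0.30 ± 0.27 (adjusted p = 0.372), and -0.75 without day 4 replicate 2 (adjusted p = 0.000564).

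Ifi27 had 140.3, 151 and 150.0 CPM at day 0, 562, 324 and 478 CPM at day 4 and 623, 814 and 669 CPM at day 8. The 3 days did not overlap, and day 4 replicate 2 was the lowest of its day. On the log2 scale the fold change was 1.63 ± 0.20 for day 4 against day 0 and 2.25 ± 0.21 for day 8 against day 0 (adjusted p = 8.32e-05 and 8.54e-06). For day 8 against day 4 it was 0.63 ± 0.20 (adjusted p = 0.046), a call that held in 1 of 9 leave-outs, that without day 4 replicate 1, and reached an adjusted p of 0.135 without day 8 replicate 2. Ifi35, a leucine-zipper protein, averaged 21.1 ± 1.31 CPM at day 0, 25.3 ± 2.87 CPM at day 4 and 25.3 ± 5.26 CPM at day 8 and passed in no comparison.

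Per length, as RPKM (CPM per kilobase of exon), Ifitm3 stood at 676, Ifi27 at 100.0, Bst2 at 72.3 and Isg15 at 47.1 at day 0. At day 4 Ifitm3 was at 550.0, Ifi27 at 310.0, Bst2 at 48.9 and Ifi35 at 14.6, with Isg15 next at 12.9. At day 8 Ifi27 led at 479 RPKM, above Ifitm3 at 385, Bst2 at 119 and Isg15 at 38.5.

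Among the nucleic acid sensors, Zbp1, which recognises Z-form nucleic acids, had 15.0, 11.5 and 12.9 CPM at day 0, 2.42, 6.09 and 3.94 CPM at day 4 and 13.6, 13.1 and 15.5 CPM at day 8. Its day 4 libraries were below the rest, and days 0 and 8 overlapped. In the fit, the log2 fold change was -1.66 ± 0.28 for day 4 against day 0 and 1.76 ± 0.29 for day 8 against day 4 (adjusted p = 0.00067 and 0.00287). Ifih1 (MDA5), a sensor of long double-stranded RNA, averaged 3.28 ± 0.684 CPM at day 0, 2.37 ± 0.676 CPM at day 4 and 5.26 ± 0.159 CPM at day 8, with day 8 above both other days. By edgeR the log2 fold change was 1.15 ± 0.28 for day 8 against day 4 (adjusted p = 0.0153; 0.0553 without day 4 replicate 3) and 0.68 ± 0.27 for day 8 against day 0 (adjusted p = 0.0458). The day 8 against day 0 call of Ifih1 was lost in 6 of 9 leave-outs, without day 0 replicate 2 or 3, day 4 replicate 2 or any 1 of the day 8 libraries (adjusted p up to 0.169). It was also lost with library totals (0.32, adjusted p = 0.312) and without the filter (adjusted p = 0.0787).

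Dhx58 (LGP2), a helicase that modulates RIG-I and MDA5, had 5.82, 4.57 and 6.48 CPM at day 0, 9.89, 7.44 and 10.9 CPM at day 4 and 14.2, 19.7 and 14.8 CPM at day 8. The days did not overlap. Its log2 fold change was 0.74 ± 0.22 for day 4 against day 0, 1.53 ± 0.22 for day 8 against day 0 and 0.78 ± 0.22 for day 8 against day 4 (adjusted p = 0.0147, 0.00016 and 0.0273). The first was lost without day 0 replicate 2 or day 4 replicate 3 (adjusted p up to 0.0625) and with library totals, and the third without day 4 replicate 2 or day 8 replicate 2 (up to 0.0951). Its exons overlap those of Dhx58os on the opposite strand.

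PARP9 and DTX3L form a complex of an ADP-ribosyltransferase relative and a ubiquitin ligase, and PARP14 is a mono-ADP-ribosyltransferase. Parp9 averaged 17.6 ± 1.59 CPM at day 0, 11.0 ± 1.93 CPM at day 4 and 22.7 ± 4.31 CPM at day 8 (SD, n = 3 each). Dtx3l averaged 15.2 ± 0.825, 6.94 ± 2.02 and 13.1 ± 4.0 CPM on days 0, 4 and 8. Both were lower at day 4 than at day 0, by log2 fold changes of -0.69 ± 0.19 for Parp9 and -1.13 ± 0.26 for Dtx3l (adjusted p = 0.00999 and 0.00364). Both were higher at day 8 than at day 4, by 1.05 ± 0.19 for Parp9 (adjusted p = 0.00443) and 0.91 ± 0.26 for Dtx3l (adjusted p = 0.029). Dtx3l lost that call without day 4 replicate 1 or 3 or day 8 replicate 1 or 2 (adjusted p up to 0.102) and with library totals. Parp14, at 5.48 ± 0.377 CPM on day 0, 3.41 ± 1.46 CPM on day 4 and 8.0 ± 0.528 CPM on day 8, was higher at day 8 than at day 4 (1.23 ± 0.28, adjusted p = 0.0136). Its lower level at day 4 than at day 0 (-0.68 ± 0.28, adjusted p = 0.0632) passed among the leave-outs only without day 4 replicate 2 (-1.06, adjusted p = 0.00286), and also in DESeq2 and with library totals (adjusted p = 0.0292 and 0.0177). Parp9 and Dtx3l overlap on opposite strands, and Parp14 overlaps Gm49730 on the same strand, so their counts are uncertain.

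The GTPases known mainly as targets of interferon-gamma, which act on pathogen-containing vacuoles, went different ways. Irgm1 had 50.3, 40.9 and 37.4 CPM at day 0, 8.05, 16.8 and 8.03 CPM at day 4 and 18.5, 10.3 and 13.6 CPM at day 8. Days 4 and 8 overlapped and both lay below day 0. The log2 fold change was -1.96 ± 0.31 for day 4 against day 0 and -1.60 ± 0.31 for day 8 against day 0 (adjusted p = 0.000391 and 0.000968), against 0.36 ± 0.30 for day 8 against day 4 (adjusted p = 0.411; 0.0406 without day 4 replicate 2).

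Iigp1 (Irga6) had 4.15, 2.2 and 2.63 CPM at day 0, 13.1, 11.6 and 11.5 CPM at day 4 and 17.1, 6.25 and 10.9 CPM at day 8. Day 0 lay below both later days, which overlapped. On the log2 scale the fold change was 2.00 ± 0.36 for day 4 against day 0 and 1.93 ± 0.35 for day 8 against day 0 (adjusted p = 0.00082 and 0.000768), while -0.08 ± 0.34 for day 8 against day 4 did not pass (adjusted p = 0.89). Iigp1 and Irgm1 belong to 1 family, and the first rose while the second fell at day 4.

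Igtp (Irgm3) averaged 7.62 ± 0.96 CPM at day 0, 4.57 ± 1.12 CPM at day 4 and 7.95 ± 0.509 CPM at day 8 (SD, n = 3 each). Log2 fold changes of Igtp were -0.74 ± 0.22 for day 4 against day 0 and 0.80 ± 0.22 for day 8 against day 4 (adjusted p = 0.0147 and 0.0261). The first was lost without day 0 replicate 1 or day 4 replicate 3 (adjusted p up to 0.0652), and the second without day 4 replicate 1 or 3 or day 8 replicate 1 or 2 (up to 0.0928). Exons of Igtp overlap those of Irgm2 and 11.8% of its 50-base windows are shared with it. Of the guanylate-binding proteins, Gbp2 averaged 12.2 ± 2.11 CPM at day 0, 8.98 ± 0.67 CPM at day 4 and 7.32 ± 2.34 CPM at day 8. It was lower at day 8 than at day 0 (-0.74 ± 0.23, adjusted p = 0.0176), a call lost without day 0 replicate 3 or day 8 replicate 2 or 3 (adjusted p up to 0.0738). Gbp3 averaged 4.81 ± 1.33 CPM at day 0, 3.73 ± 0.877 CPM at day 4 and 7.66 ± 3.98 CPM at day 8. It passed in no comparison, although its day 8 libraries all lay above those of day 4 (1.04 ± 0.37, adjusted p = 0.0662). That difference did pass in DESeq2 (adjusted p = 0.0284), without the filter (0.0304) and without day 8 replicate 3 (0.0494).

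**Figure D4:**
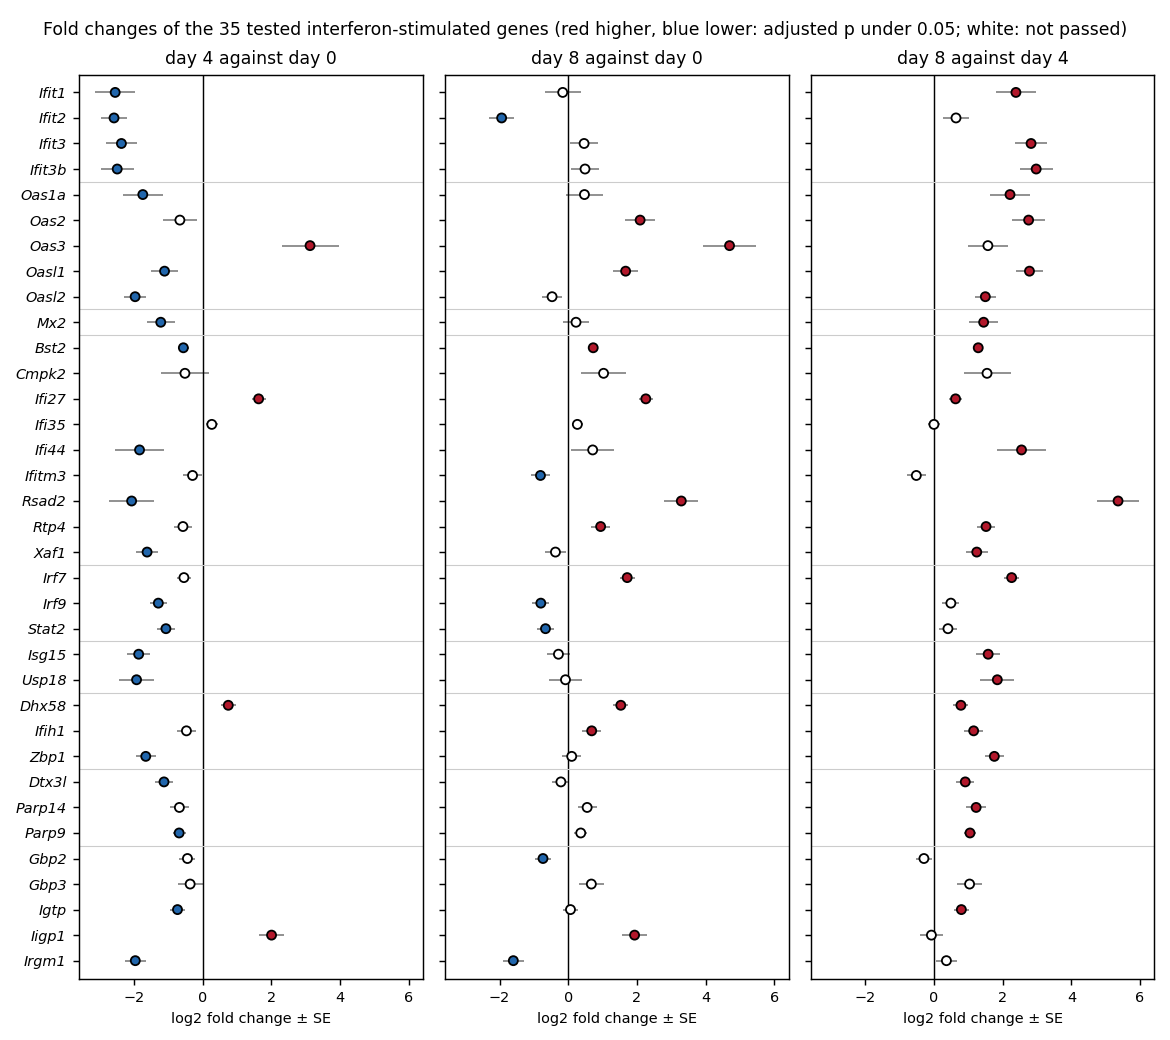
Log2 fold change ± SE from the edgeR fit for the 35 tested genes in each comparison, with red higher, blue lower (adjusted p under 0.05) and white not passed. The points spread on both sides of 0 in day 8 against day 0, while 24 are red and 0 blue in day 8 against day 4, and Rsad2, with 2 or 3 counts in each day 4 library, is at 5.36 there.

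The interferons themselves had at most 4 counts in any library. Of the 11 ligand genes listed, none had enough counts to be tested and 9 had no count in any library. Ifnb1 had 4, 1 and 0 counts at day 8 and none at days 0 and 4, and Ifng had 2, 0 and 1 counts at day 0 and none later. Reads from the Ifna genes, which are near-identical copies, may also be counted to no gene.

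Of the 6 receptor genes, 5 were tested, and at day 4 against day 0 1 was higher and 4 lower (28.6% and 26.0% of all tested genes). Ifngr1, the ligand-binding chain of the interferon-gamma receptor, had 41.1, 42.4 and 43.3 CPM at day 0, 258, 179 and 232 CPM at day 4 and 84.5, 111 and 104 CPM at day 8. No overlap was seen between days, with day 4 highest. In the fit, the log2 fold change was 2.40 ± 0.17 for day 4 against day 0, 1.24 ± 0.16 for day 8 against day 0 and -1.16 ± 0.16 for day 8 against day 4 (adjusted p = 1.38e-06, 7.95e-05 and 0.00143).

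The other chains were lower at day 4 than at day 0, with log2 fold changes of -0.85 ± 0.15 for Ifnar1, -0.50 ± 0.13 for Ifnar2, -0.77 ± 0.17 for Ifngr2 and -0.57 ± 0.14 for Il10rb, a chain of the interferon-lambda receptor (adjusted p = 0.000759, 0.00639, 0.00275 and 0.00597). Ifnar1 averaged 89.3 ± 5.28 CPM at day 0, 49.4 ± 9.49 CPM at day 4 and 49.2 ± 3.16 CPM at day 8, and was lower at day 8 than at day 0 (-0.86 ± 0.15, adjusted p = 0.000532). Ifnar2, at 42.4 ± 1.77, 29.9 ± 3.63 and 48.4 ± 2.05 CPM on days 0, 4 and 8, was higher at day 8 than at day 4 (0.69 ± 0.13, adjusted p = 0.00464), as was Il10rb (0.68 ± 0.14, adjusted p = 0.00846). Ifngr2 was lower at day 8 than at day 0 (-0.99 ± 0.17, adjusted p = 0.000442). Ifnlr1 was too low to test, with at most 0.296 CPM in any library.

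Among the kinases and STATs, Jak1, Jak2, Tyk2 and Stat3 had means below day 0 on both later days. At day 4, Jak2 (-1.02 ± 0.19, adjusted p = 0.00127), Jak1 (-0.78 ± 0.21, adjusted p = 0.0103) and Stat3 (-0.78 ± 0.22, adjusted p = 0.0129) were lower than at day 0. The calls of Jak1 and Stat3 were lost without day 4 replicate 3 (adjusted p = 0.0505 and 0.0591). At day 8, Stat3 (-1.26 ± 0.23, adjusted p = 0.000627), Jak2 (-0.61 ± 0.19, adjusted p = 0.0165) and Tyk2 (-0.60 ± 0.13, adjusted p = 0.00258) were lower than at day 0. The Jak2 call was lost on leaving out replicate 1 of day 0 or replicate 2 or 3 of day 8 (adjusted p up to 0.0818), while Jak1 was not past the threshold (-0.32 ± 0.21, adjusted p = 0.208).

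**Figure D5:**
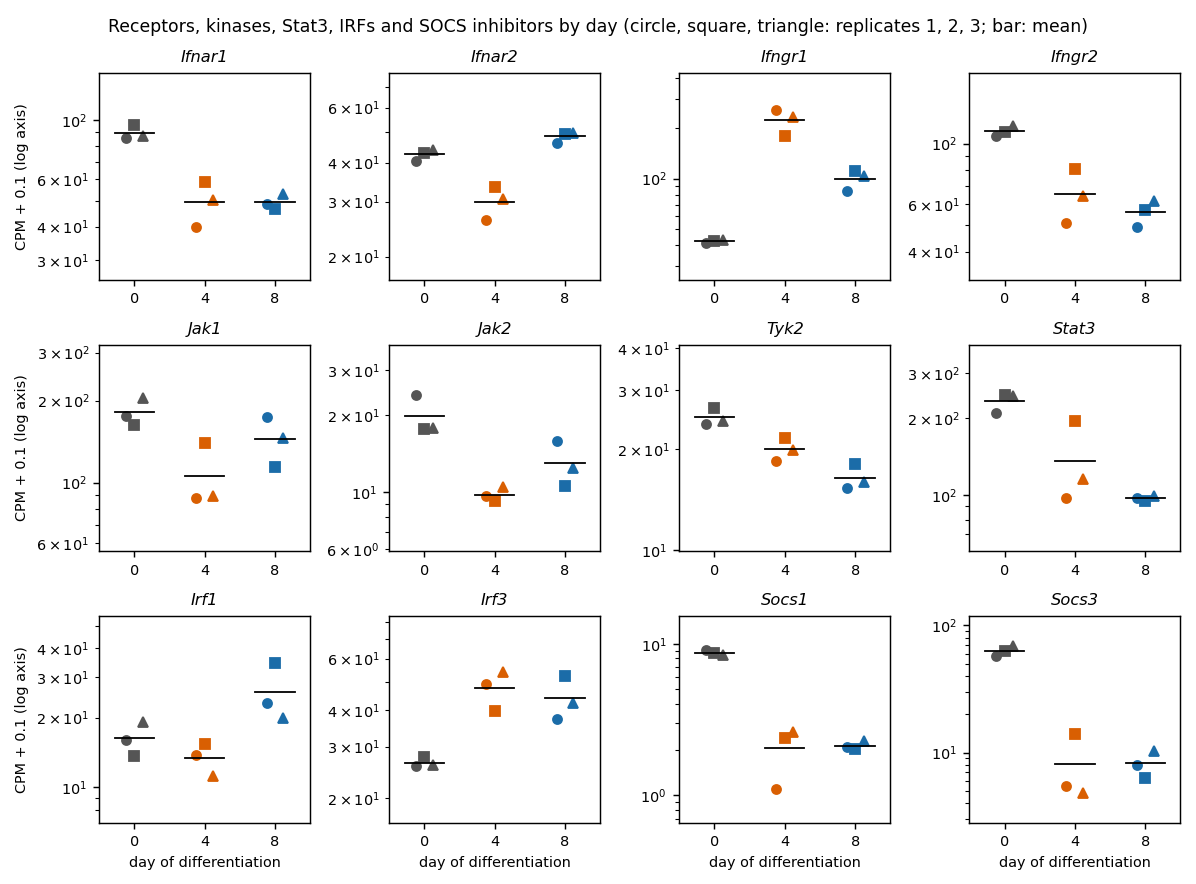
CPM + 0.1 (log axis) of 4 receptor chains, 3 kinases, Stat3, 2 interferon regulatory factors and 2 SOCS inhibitors by day, 1 point per library (circle, square and triangle for replicates 1, 2 and 3) with the mean as a bar. Ifngr1 is highest at day 4 (log2 fold change against day 0 of 2.40), and Socs1 and Socs3 stay below day 0 on both later days.

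Of the further interferon regulatory factors, 6 were tested. Irf3, which with Irf7 drives interferon transcription, averaged 26.3 ± 0.998 CPM at day 0, 47.5 ± 7.18 CPM at day 4 and 43.9 ± 7.62 CPM at day 8 (SD, n = 3 each). Irf3 was higher than day 0 at day 4 (0.85 ± 0.16, adjusted p = 0.00119) and at day 8 (0.74 ± 0.16, adjusted p = 0.00217). Irf1, a transcriptional activator that interferon-gamma induces, was higher at day 8 than at day 4 (0.95 ± 0.23, adjusted p = 0.0155) and than at day 0 (0.67 ± 0.23, adjusted p = 0.0227). The first of these calls of Irf1 was lost without day 4 replicate 3 or day 8 replicate 2 (adjusted p up to 0.0618), and the second without day 0 replicate 1 or 2 or day 8 replicate 2 (up to 0.104) and with library totals. Irf5 was lower than day 0 at day 4 (-1.05 ± 0.31, adjusted p = 0.0154; up to 0.0577 without day 0 replicate 1 or day 4 replicate 3) and day 8 (-1.12 ± 0.31, adjusted p = 0.00917). Irf4, known in adipocytes as a regulator of lipolysis and thermogenic genes, had 0.0539, 0 and 0 CPM at day 0, 4.84, 1.42 and 4.45 CPM at day 4 and 5.34, 5.42 and 6.27 CPM at day 8. From 268 counts at day 4 and 477 at day 8, each against 2 at day 0, its ratios were 177 (95% counting interval 48.6 to 1.47e+03) and 289 (79.6 to 2.4e+03), and both counts of day 0 were in replicate 1. The intervals of Irf4 also leave out the spread between libraries. Irf8 was low, with 0.125, 0.218 and 0.276 CPM at day 4 and 0.659, 0.678 and 1.44 CPM at day 8. At day 0 only replicate 2 (0.745 CPM) passed the filter's 0.346 CPM, and no day 4 library did, so Irf8 was tested because of its day 8 level. It was higher at day 8 than at day 4 (2.14 ± 0.61, adjusted p = 0.0316). That call held in 2 of 9 leave-outs, those without day 0 replicate 1 or 2 (adjusted p up to 0.104 in the others). Irf2 passed in no comparison.

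Of 16 sensors and adaptors, 13 were tested, with 3 higher and 7 lower at day 4 than at day 0, 2 higher and 7 lower at day 8 than at day 0, and 1 higher and 2 lower at day 8 than at day 4. Over all tested genes the shares higher and lower in these comparisons were 28.6% and 26.0%, 33.5% and 29.9%, and 11.7% and 10.8%. Mavs, the mitochondrial adaptor of RIG-I and MDA5, averaged 33.1 ± 1.85 CPM at day 0, 114 ± 27.2 CPM at day 4 and 95.4 ± 11.6 CPM at day 8. Mavs rose by 1.78 ± 0.18 at day 4 against day 0 on the log2 scale (adjusted p = 2.11e-05). Rigi, the gene of RIG-I, averaged 34.3 ± 3.2 CPM at day 0, 10.7 ± 4.3 CPM at day 4 and 18.9 ± 1.69 CPM at day 8. Rigi had a log2 fold change of -1.68 ± 0.24 at day 4 against day 0 (adjusted p = 0.000202). It was the 1 called higher at day 8 than at day 4 (0.82 ± 0.24, adjusted p = 0.0323). That call held in 2 of 9 leave-outs (adjusted p up to 0.111). It was lost with library totals (0.0648) and with only the libraries of the 2 days compared (0.0899). Sting1, the adaptor of cytosolic DNA sensing, averaged 60.0 ± 5.53, 18.6 ± 11.2 and 10.5 ± 1.25 CPM on days 0, 4 and 8. For Sting1 the log2 fold change was -1.69 ± 0.33 for day 4 against day 0 (-2.31 without day 4 replicate 2) and -2.52 ± 0.34 for day 8 against day 0 (adjusted p = 0.00143 and 0.000101). The DNA sensor Cgas (-1.04 ± 0.40, adjusted p = 0.0475), the RNA sensor Tlr3 (-1.17 ± 0.31, adjusted p = 0.00894) and the RNA editor Adar (-1.03 ± 0.31, adjusted p = 0.0154; 0.0658 without day 4 replicate 3) were also lower at day 4 than at day 0. The Cgas call held in 1 of 9 leave-outs, that without day 4 replicate 2, with the adjusted p up to 0.131 in the others.

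Among 6 negative regulators, 3 were lower and 0 higher at day 4 than at day 0, and the same counts held at day 8 against day 0. None had an unadjusted p under 0.05 for a rise in either comparison. Over all tested genes 26.0% were lower and 28.6% higher at day 4 than at day 0, and 29.9% lower and 33.5% higher at day 8 than at day 0. Socs3, a suppressor of cytokine signalling, had 57.9, 62.8 and 68.9 CPM at day 0, 5.38, 13.9 and 4.72 CPM at day 4 and 7.84, 6.21 and 10.3 CPM at day 8. Socs1, its relative that inhibits JAK1 and JAK2, had 9.03, 8.55 and 8.28 CPM at day 0, 1.0, 2.29 and 2.52 CPM at day 4 and 1.98, 1.92 and 2.17 CPM at day 8. Both were below day 0 in every later library. At day 4 the log2 fold change was -2.98 ± 0.37 for Socs3 and -2.15 ± 0.31 for Socs1 (adjusted p = 8.02e-05 and 0.000219), that of Socs3 being -3.64 without day 4 replicate 2. At day 8 it was -2.96 ± 0.37 for Socs3 and -2.09 ± 0.31 for Socs1 (adjusted p = 6.32e-05 and 0.00019). Trim21, a ubiquitin ligase, was lower at day 4 than at day 0 (-0.93 ± 0.27, adjusted p = 0.0147), a call lost without day 0 replicate 3 or day 4 replicate 1 or 3 (adjusted p up to 0.0623).

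A further list held 41 interferon-stimulated genes outside the 36, of which 32 were tested. At day 4 against day 0, 4 were higher and 14 lower, with a median log2 fold change of -0.81 against -0.01 over all genes, of which 28.6% were higher and 26.0% lower. At day 8 against day 4, 9 were higher and 3 lower (median 0.80), and at day 8 against day 0, 6 were higher and 8 lower (median -0.08). Over all tested genes 11.7% were higher and 10.8% lower at day 8 against day 4, and 33.5% higher and 29.9% lower at day 8 against day 0, so the list's share called in the last comparison did not exceed the background in either direction. Cxcl10, a chemokine for T cells, had 0.566, 0.615 and 0.444 CPM at day 0, 0, 0.109 and 0.118 CPM at day 4 and 2.36, 3.35 and 1.61 CPM at day 8. Its 3 days did not overlap, and its day 4 libraries held 0, 3 and 3 counts. Its log2 fold change was 2.16 ± 0.48 for day 8 against day 0 and 4.90 ± 0.63 for day 8 against day 4 (adjusted p = 0.00261 and 0.000934). Cxcl9, its neighbour, averaged 0.313 ± 0.0329 CPM at day 0, 1.7 ± 0.382 CPM at day 4 and 1.49 ± 0.414 CPM at day 8, and was higher than day 0 at day 4 (2.43 ± 0.38, adjusted p = 0.000372).

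Ifi27l2a, a relative of Ifi27, had 5.23, 4.24 and 4.47 CPM at day 0, 62.0, 18.7 and 52.9 CPM at day 4 and 80.7, 111 and 142 CPM at day 8. The 3 days did not overlap, and its log2 fold change was 3.26 ± 0.40 for day 4 and 4.58 ± 0.42 for day 8 against day 0 (adjusted p = 7.11e-05 and 8.23e-06). Ifi47, a GTPase of the Irgm1 family, averaged 8.43 ± 0.728 CPM at day 0, 1.04 ± 0.615 CPM at day 4 and 3.5 ± 1.08 CPM at day 8. For Ifi47 the log2 fold change was -3.00 ± 0.39 for day 4 against day 0 (-3.60 without day 4 replicate 2) and 1.73 ± 0.39 for day 8 against day 4 (adjusted p = 0.000107 and 0.0115). Gbp7 averaged 1.52 ± 0.325 CPM at day 0, 0.328 ± 0.21 CPM at day 4 and 1.41 ± 0.317 CPM at day 8 (-2.18 ± 0.48 for day 4 against day 0, adjusted p = 0.00295). Tgtp2, a further GTPase of that family, was below 1.3 CPM in every library and lower at day 4 than at day 0 (-2.87 ± 0.85, adjusted p = 0.0151). Without day 4 replicate 2 its log2 fold change was -5.16, and without day 0 replicate 1 or day 4 replicate 3 the call was lost (adjusted p up to 0.0623).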

How the data were processed

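RNA-seq of 9 libraries (3 each at days 0, 4 and 8) was analysed, with groups and replicate numbers taken from the labels. The authors deposited raw counts per gene, with 1 column per library. Per the submitters' processing notes, HISAT2 aligned the reads to GRCm39 and featureCounts did the counting. Their versions, the strand setting and the annotation are not given in the sources used here. Genes with overlapping exons (Usp18, Oasl1, Ifi35 and Gbp2, besides those named in the results) therefore have uncertain counts. Every row named a gene and no per-sample column was left unused (0). No label ties a replicate to its own culture or animal, so p-values reflect only how far these samples spread, and that spread may be technical. No pair of libraries of a day agreed within sampling noise (chi-square per degree of freedom 15.5 to 229).

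Counts were fitted in R 4.3.3 with edgeR 4.0.16 (TMM, filterByExpr with minimum count 10 and minimum total 15, quasi-likelihood F-tests, two-sided, 6 residual degrees of freedom, biological coefficient of variation 22.7%). All 9 libraries entered 1 fit, and p-values were adjusted by Benjamini-Hochberg over 14649 genes at a threshold of 0.05. Every adjusted p in the text is from this fit unless DESeq2 1.42.0 is named, and each SE is the log2 fold change divided by the root of its F. RPKM used exon lengths of GENCODE M21, which is of another genome build, as did the search for shared 50-base windows. The procedure was tested on simulated data. Alternatives were DESeq2 with its size factors, library totals, no filter, a replicate block, the libraries of the 2 days compared alone, and leaving out each library.

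The 36 genes and the pathway and marker lists were chosen with earlier results of these data known. The genes named were all 36, all genes of the ligand, receptor, JAK-STAT and IRF lists, and from the other pathway lists at most 6 each with the largest change past the threshold at day 4 against day 0. A few genes of these lists are not reported here. Promoter letters came from RefSeq for 25 of 36 genes, and the promoters of the others were not used here.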

Additional observations from a re-analysis of the deposited data

How the results depend on the processing

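Counts in day 8 against day 4 moved most. All genes changed numbered 3285 with all libraries, 1901 with only the libraries of the 2 days compared, and 1894 to 4185 in the leave-outs. Of the 35 tested interferon-stimulated genes, 24 changed there, all higher, 15 with only those libraries, and 14 to 25 in the leave-outs. The calls ended with only those libraries were of Oas1a, Mx2, Usp18, Ifi44, Ifi27, Xaf1, Dhx58, Dtx3l and Igtp (adjusted p = 0.054 to 0.123). At day 4 against day 0, the libraries of those 2 days alone left 33 interferon-stimulated genes tested, with 17 lower and 3 higher. Oasl1, Oas1a and Ifi44 lost their calls there (adjusted p = 0.0807, 0.0561 and 0.0742). Rsad2 and Oas3 were not tested there, so their calls at day 4 against day 0 rest on entry to the fit through day 8. The number lower in day 8 against day 0 was 6, and 3 to 7 in the leave-outs. The cause was not tested, except that fewer libraries entered these fits.

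Library totals in place of TMM moved the median of all genes to -0.34 in day 4 against day 0 and -0.33 in day 8 against day 0, and the share of called genes that were higher to 35.3% (52.4% with TMM) and 37.5% (52.9%). The interferon-stimulated genes were then 26 lower and 3 higher, and 7 lower and 8 higher. DESeq2 changed no sign among the genes named and no count by over 1.5 times.

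Signs turned only for genes not past the threshold. With library totals these were Ifi35 (-0.058) and Irf2 (-0.14) in day 4 against day 0, Mx2 (-0.14), Ifi35 (-0.11), Zbp1 (-0.26), Igtp (-0.30), Ifnar2 (-0.17), Il10rb (-0.26) and Irf2 (-0.12) in day 8 against day 0, and Socs3 (-0.037) in day 8 against day 4, which was -0.014 with only the libraries of the 2 days compared. Leave-outs gave -0.083 to 0.35 for Irf2 in day 4 against day 0. In day 8 against day 0 they gave -0.78 to 0.25 for Ifit1, -0.08 to 0.52 for Mx2, -0.26 to 0.12 for Usp18, -0.004 to 0.18 for Zbp1, -0.02 to 0.14 for Igtp and -0.30 to 0.051 for Gbp7. In day 8 against day 4 they gave -0.18 to 0.093 for Ifi35, -0.49 to 0.22 for Iigp1, -0.14 to 0.082 for Ifnar1, -0.099 to 0.28 for Irf2, -0.30 to 0.25 for Irf5, -0.59 to 0.14 for Cgas, -0.69 to 0.056 for Adar, -0.25 to 0.63 for Socs3, -0.25 to 0.29 for Socs1 and -0.39 to 0.009 for Cxcl9.

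Deviations of same-numbered libraries of different days correlated between -0.13 and 0.27, and those of differently numbered ones between -0.22 and 0.19. Between days 0 and 8 the same-numbered pairs had 0.27, 0.14 and 0.09, against -0.18 to 0.04 for the differently numbered pairs. Whether the replicate numbers pair the samples was therefore not settled. With the replicate block, 21 interferon-stimulated genes were lower and 4 higher at day 4 against day 0, 5 lower and 11 higher at day 8 against day 0, and 22 higher at day 8 against day 4, and Ifnar1 turned sign in the last (0.007). The calls ended by the block were those of Ifi44 (adjusted p = 0.0832) and Cgas (0.0537) at day 4 against day 0, Stat2 (0.0599) at day 8 against day 0, and Ifi44 (0.0579) and Ifi27 (0.0756) at day 8 against day 4, while Irf7 (0.0208) and Tyk2 (0.0427) passed at day 4 against day 0.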
